A study of Bos indicus with 9 samples.

Results

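The APP locus of cattle was described through the peaks of open chromatin that fall in a 1 Mb window of chromosome 1, from 9900000 to 10900000 on ARS-UCD1.2. Every peak that overlapped this window in the hypothalamus, muscle or liver list was taken, which gave 48 of the 140923 peaks of the 3 lists. The hypothalamus list held 39 of them, the muscle list 7 and the liver list 2. The locus was chosen by these measured values, the number of peaks in each list and the high summit value of a hypothalamus peak in an APP intron, so the counts, positions and strengths given here are a description and carry no test.

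ATAC-seq, in which a transposase cuts and tags accessible DNA, was applied to nuclei of frozen hypothalamus, muscle and liver of 3 unrelated post-pubertal Brahman heifers, an indicine (Bos indicus) beef breed. Each heifer gave 1 library per tissue, so the 9 libraries form 3 groups of 3, no animal was treated, and the tissues came from the same animals. Each list is a consensus over the 3 heifers of a tissue without separate values per animal, and the spread between animals cannot be given for any value. Tissue was bulk, and a weaker or missing peak may stand for fewer cells of a type or for less accessibility per cell, which cannot be told apart.

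APP encodes the amyloid precursor protein, a transmembrane protein made in many tissues and abundant in neurons. Alpha- or beta-secretase makes the first cut and gamma-secretase the next, and the beta and gamma cuts together release amyloid beta, the peptide of the plaques of Alzheimer's disease. Introns of long genes often hold enhancers, stretches of open chromatin that act on promoters in particular cell types. In the order of the cattle annotation the gene lies between CYYR1, which encodes a cysteine- and tyrosine-rich membrane protein, and GABPA, which encodes an ETS-family transcription factor. Behind GABPA follow ATP5PF, for a subunit of the mitochondrial ATP synthase stalk, JAM2, for a junctional adhesion molecule, and MRPL39, for a protein of the mitochondrial ribosome.

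Most hypothalamus peaks of the window lay in APP introns, while both liver peaks lay at promoters of other genes. By the authors' labels for each peak (promoter, intron, exon or distal intergenic), 26 of the 39 hypothalamus peaks belonged to APP, 1 at its promoter and 25 in its introns. A peak was given to the gene of the transcript that its label names, or to the nearest gene where none was named. Muscle had 4 APP peaks, 1 at the promoter and 3 in introns, and liver had 0. The remaining 13 hypothalamus peaks were spread over CYYR1, with 1 intron peak, GABPA, with 1 intron peak, ATP5PF, with 1 promoter peak, JAM2, with 4 peaks, MRPL39, with 3 peaks, and MIR155, a microRNA gene, with 3 peaks. The 2 liver peaks lay at the promoters of ATP5PF and MRPL39. A peak that is missing from a list did not pass the authors' peak threshold in that tissue, which is not the same as closed chromatin.

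**Figure D1:**
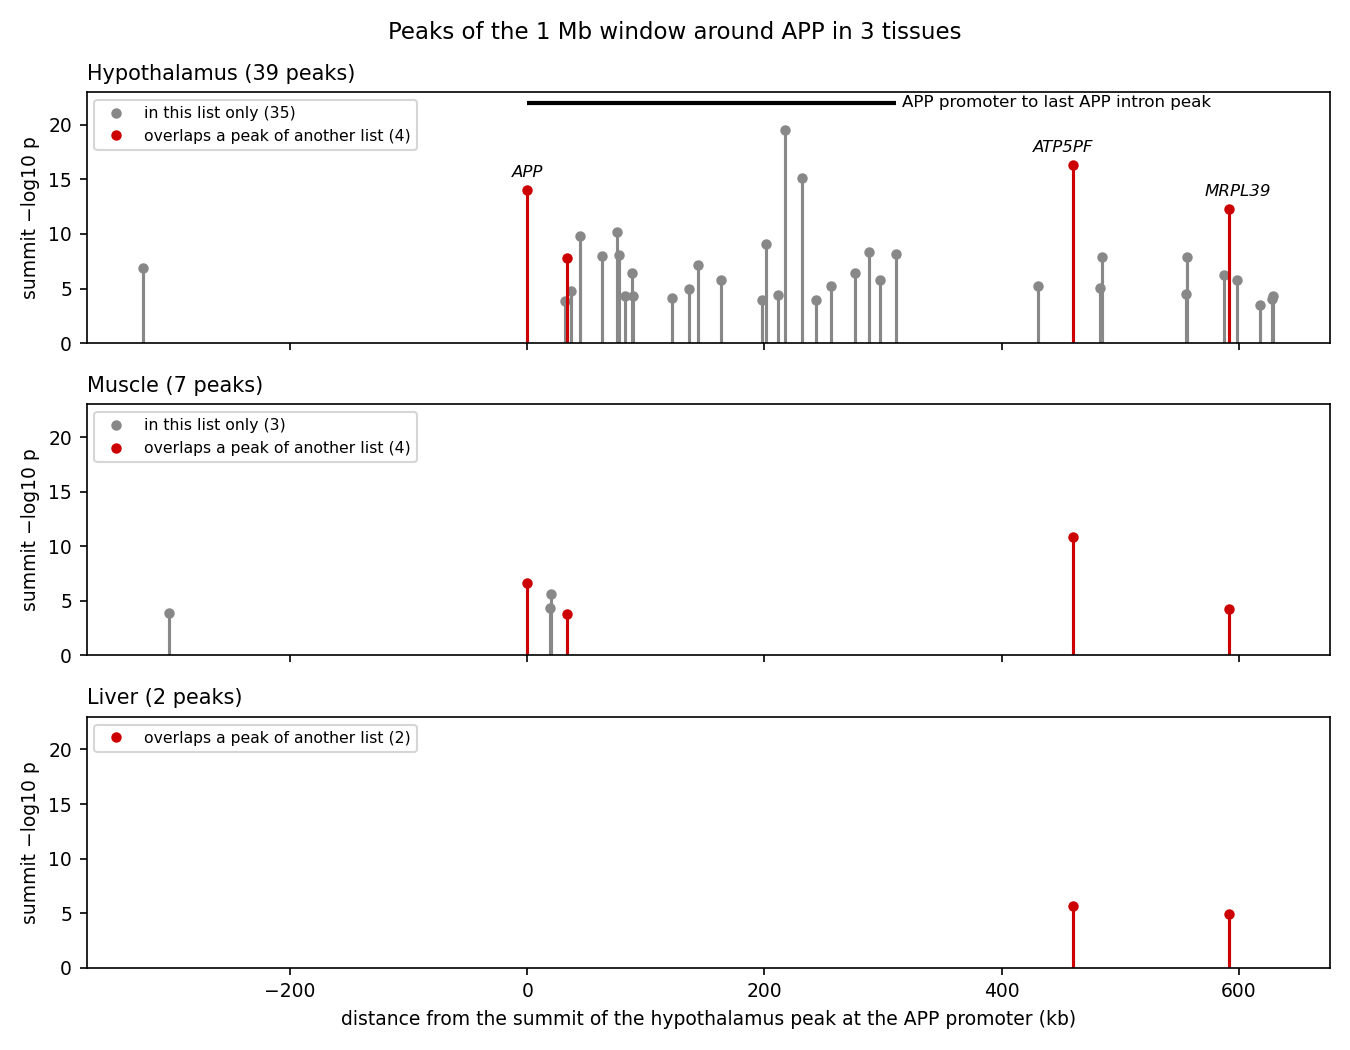
Each stem is a peak of the 1 Mb window, placed by the distance of its summit from that of the hypothalamus peak at the APP promoter (x axis, kb) and as high as its summit −log10 p (y axis), in 3 panels for hypothalamus, muscle and liver. Red marks a peak that overlaps a peak of another list and grey a peak of its own list alone; the hypothalamus panel has 25 stems along the APP introns, the muscle panel 3 and the liver panel none.

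The lists differ in length, and this bears on each of these counts. On chromosomes 1 to 29 and X the hypothalamus list held 71028 peaks, the muscle list 30483 and the liver list 12063. The window thus held 5.49 of every 10000 hypothalamus peaks, 2.30 of every 10000 muscle peaks and 1.66 of every 10000 liver peaks. When only the 12063 strongest peaks of each list were kept, the window held 5 hypothalamus, 2 muscle and 2 liver peaks. The sequencing depth of the libraries is not in the lists, and its part in the counts was not tested.

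Strength was read from 2 values of each peak. The summit value is the −log10 of the p-value at the highest point of the peak, combined over the 3 heifers and not corrected for multiple tests. The AUC is the area under the −log10 p curve of the peak that lies above the authors' peak threshold. It therefore grows with length as well as height. Neither is scaled between tissues, and each peak was therefore also given its percentile, the percent of peaks of its own list on chromosomes 1 to 29 and X with a lower value.

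The APP promoter was open in hypothalamus and muscle. In hypothalamus the promoter peak (chr1:10231156-10233450) was 2295 bp long, with an AUC of 10098 and a summit value of 14.0. In muscle the promoter peak (chr1:10231361-10232043) was 683 bp long, with an AUC of 1281 and a summit value of 6.63. The muscle peak lay wholly within the hypothalamus peak, its summit 83 bp away, and covered 29.8% of it.

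Within their own lists the hypothalamus promoter peak stood at percentile 87.7 and the muscle promoter peak at percentile 72.0 by summit value. Their difference of 15.7 percentile points was close to the median of 11.5 points over all 15371 pairs of hypothalamus and muscle peaks that matched one to one, and 57.2% of those pairs had a lower difference. The hypothalamus peak was 3.36 times as long as the muscle peak, where the median ratio of the pairs was 1.84 and 85.5% of pairs had a lower one. The longer hypothalamus peak was the common case, found in 84.4% of pairs.

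No liver peak overlapped the APP promoter. Among the 3864 hypothalamus peaks with an AUC at least as high as that of the APP promoter peak, 88.3% overlapped a muscle peak and 77.8% overlapped a liver peak. Sharing of the APP promoter with muscle was thus the usual case for a peak of that AUC, and the missing liver peak was the less usual one. The nearest liver peak was the one at the ATP5PF promoter, whose summit lay 460 kb beyond that of the APP promoter.

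The strongest peak of the window by summit value was an intron peak of APP. It lay at chr1:10448255-10450276 in the hypothalamus list, 218 kb from the promoter summit, and was 2022 bp long. Its summit value of 19.5 stood at percentile 97.1, and its AUC of 9168 at percentile 93.3. The summit value was thus higher than the 14.0 of the APP promoter itself, and the AUC was lower. The nearest muscle peak was 183 kb away.

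Few peaks of that strength were confined to a single list. Of the 2045 hypothalamus peaks on chromosomes 1 to 29 and X with a summit value at least as high, 190 (9.29%) overlapped no muscle and no liver peak. The strongest APP intron peak was among them, and since it was chosen for this, nothing is read from its place there. That share depends on how sharing is counted and was 54.6% when a shared peak had to overlap by 50% in both directions.

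A second strong intron peak lay 14.0 kb further on by summit, at chr1:10462778-10464117. It was 1340 bp long, with an AUC of 3928 and a summit value of 15.2 (percentile 90.2), and was likewise in the hypothalamus list alone. In the part of chromosome 1 for which labels were at hand, the list had 452 intron peaks, with a median summit value of 5.28. The pair ranked 4 and 17 among these, and 2 and 7 among the 417 of them that no other list shared. Together they held 37.2% of the summed AUC of the 25 APP intron peaks.

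The other APP intron peaks were of ordinary strength for the hypothalamus list. Over the 25 the median percentile of the summit value was 54.7, and 2 of them, the pair above, were over percentile 90. Next in strength came a peak at chr1:10306733-10307561 with a summit value of 10.2 and an AUC of 2332, and one at chr1:10275870-10276733 with a summit value of 9.78 and an AUC of 1914. A peak at chr1:10432629-10433507, 16.5 kb before the strongest by summit, had a summit value of 9.10 and an AUC of 2408. The peak at chr1:10519380-10520044 had a summit value of 8.38 and an AUC of 1431.

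At the low end, the peak at chr1:10263809-10264033 had a summit value of 3.89 and an AUC of 226. The peak at chr1:10429575-10430250 had a summit value of 3.91 and an AUC of 279, and the one at chr1:10475052-10475271 a summit value of 3.97 and an AUC of 211. These 3 stood between percentiles 10.5 and 12.7 by summit value. The intron peaks were 220 to 2022 bp long, with a median of 557 bp, close to the median of 567 bp over the hypothalamus list.

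The intron peaks were strung along the gene without a long break. Their summits lay from 32.2 kb to 311 kb beyond the promoter summit, and the median gap between neighbours, the promoter included, was 10396 bp. The longest gap was 34094 bp. In the first 100 kb there were 10 peaks, with a median summit value of 7.11. From 100 to 200 kb there were 5, with a median of 4.97, and from 200 to 320 kb there were 10, with a median of 7.27. The last stretch held both of the strongest peaks, and the middle one was the sparsest and the weakest.

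The promoter and intron peaks of APP held 61.3% of the summed AUC of the window in hypothalamus. The intron peaks alone held 47.7%, while the 3 promoter peaks of APP, ATP5PF and MRPL39 held 39.3%. By base pairs, hypothalamus peaks covered 2.79% of the window, muscle peaks 0.400% and liver peaks 0.177%.

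**Figure D2:**
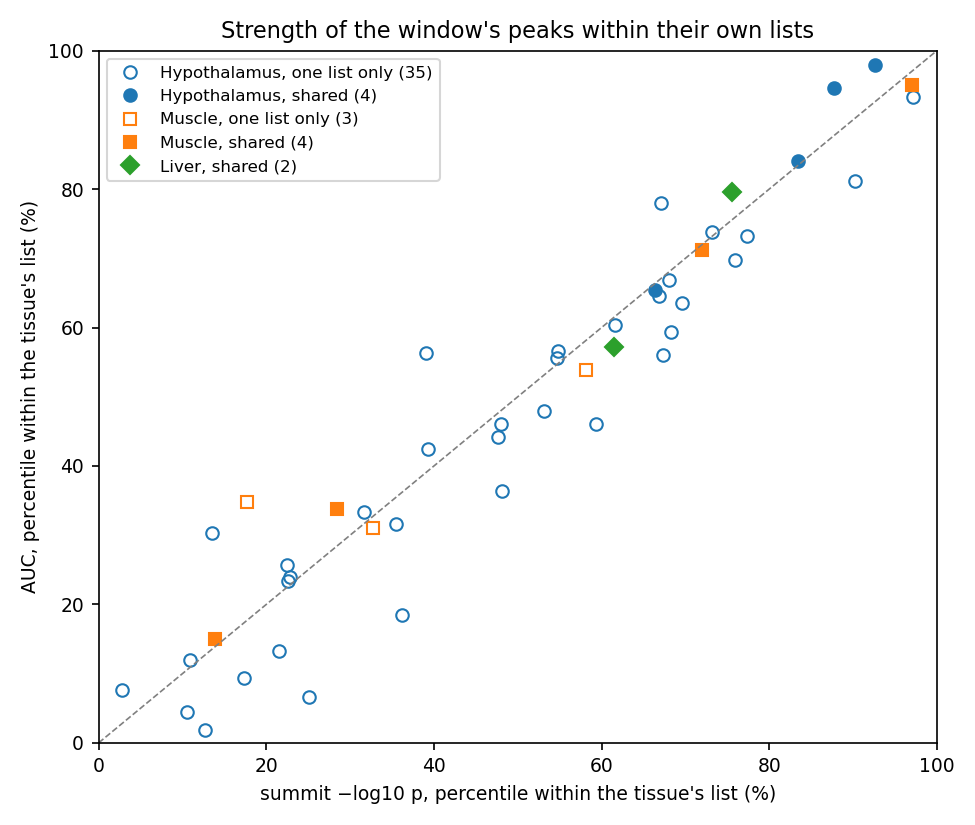
The percentile of the AUC (y axis, %) is plotted against the percentile of the summit −log10 p (x axis, %), each within the tissue's own list, for the 39 hypothalamus peaks (circles), 7 muscle peaks (squares) and 2 liver peaks (diamonds) of the window; filled marks are shared with another list. The strongest APP intron peak is the open circle at 97.1 and 93.3, beside the filled marks of the promoters.

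APP carried more hypothalamus intron peaks than any other transcript in the labelled part of chromosome 1. Its 25 were 5.53% of the 452, the next transcript had 17, and the median over the 112 transcripts with any was 2. The order at the top held with peaks of summit value 5 or more, of which APP had 16 and the next transcript 10. In muscle, 8 transcripts had more than the 3 intron peaks of APP, up to 18, and in liver APP had 0 of 18.

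A long gene has more room for peaks, so they were also counted per length. APP had 8.33 hypothalamus peaks per 100 kb of gene body, against a median of 2.26 over the 44 genes of at least 100 kb in the same part of the chromosome. That placed APP at rank 9. Among the 20 genes of at least 200 kb APP was at rank 1, with a median of 1.84 per 100 kb. In muscle it had 1.28 peaks per 100 kb, at rank 12 of the 44 genes, beside a median of 0.755. Only genes that the labels name could enter this ranking.

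The hypothalamus peaks of the window were seldom shared. Of the 39, 35 (89.7%, 95% Wilson interval 76.4 to 95.9) overlapped no peak of either other list by at least 1 bp, beside 74.8% of all hypothalamus peaks on chromosomes 1 to 29 and X. For the APP introns it was 24 of 25 (96.0%, interval 80.5 to 99.3), beside 92.3% of the 452 hypothalamus intron peaks in the labelled part of chromosome 1. The share at the APP introns was thus near that of intron peaks in general. With the 12063 strongest peaks of each list, 2 of the 5 hypothalamus peaks of the window (40.0%) were unshared, beside 36.8% of the list so shortened, and these were the pair of strong APP intron peaks. The intervals cover counting error only. They take no account of the heifers, and neighbouring peaks are not independent.

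Weak peaks were shared less often than strong ones across the whole list. By deciles of summit value the share found in hypothalamus alone was 88.6% to 91.2% over the lowest 5, and fell through 86.2%, 80.7%, 68.6% and 42.4% to 20.0% in the highest. Had each window peak had the share of its own decile, 30.6 of the 39 would have been in hypothalamus alone, against the 35 found. For the 25 APP intron peaks it would have been 19.9, against the 24 found. The decile shares are over peaks of every label, however, and 92.3% of the 452 labelled intron peaks were unshared. The 24 found are therefore not read as an excess. Nor are the 35 found in the window, since these 24 are among them. With a summit value of 10 or more there were 6 window peaks. The 3 unshared ones were all APP intron peaks, and the 3 shared ones were the promoter peaks of APP, ATP5PF and MRPL39. The share over all hypothalamus peaks of that summit value is not given here, so nothing is read from this split.

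**Figure D3:**
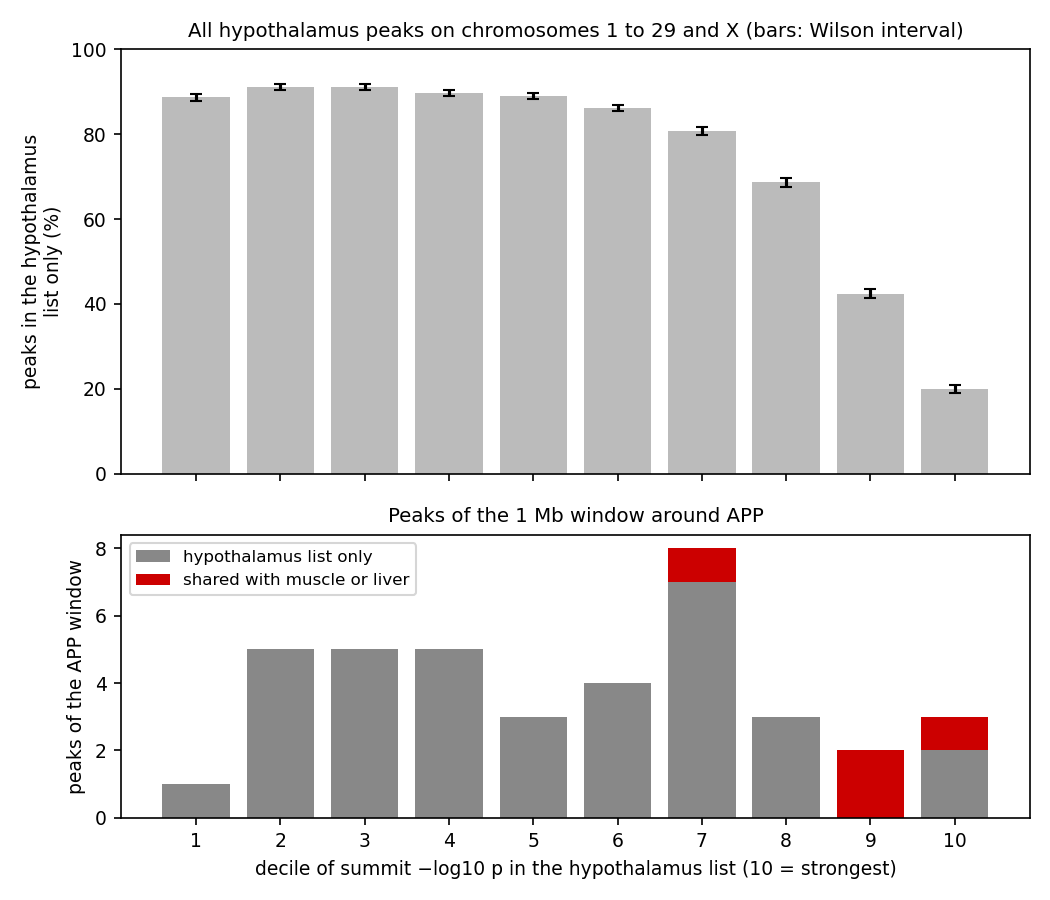
The upper panel gives the percent of hypothalamus peaks that overlap no muscle or liver peak (y axis) by decile of summit −log10 p (x axis, 10 strongest), with 95% Wilson intervals; it falls to 20.0% in the strongest. The lower panel gives the number of window peaks in each decile, grey for the hypothalamus list alone and red for shared: 2 of the 3 in the strongest decile are unshared, and these are APP intron peaks.

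A single APP intron site was open in hypothalamus and muscle. In hypothalamus it lay at chr1:10264717-10265437, 33.3 kb beyond the promoter summit, with an AUC of 1556 and a summit value of 7.80 (percentile 66.4). In muscle it lay at chr1:10265062-10265376, with an AUC of 278 and a summit value of 3.80 (percentile 13.9). The muscle peak was within the hypothalamus peak, with summits 113 bp apart. Its difference of 52.5 percentile points was among the wider ones, and 91.2% of one-to-one pairs had a lower one.

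Muscle had its own intron peaks nearer the APP promoter. They lay at chr1:10251056-10251411, with an AUC of 407 and a summit value of 4.39, and at chr1:10251689-10252206, with an AUC of 757 and a summit value of 5.61. Their summits were 19.5 and 20.0 kb beyond that of the hypothalamus promoter peak. The nearest hypothalamus peak was 11.6 kb away from the second of them, so muscle opened part of the APP introns in which the hypothalamus list had no peak. Past the shared intron site the muscle list had no peak for 425495 bp, up to the ATP5PF promoter, and 23 of the 25 hypothalamus intron peaks, including the strongest, lay in that stretch.

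Of the 7 muscle peaks in the window, 3 (42.9%, Wilson interval 15.8 to 75.0) overlapped no other list, beside 36.0% of all muscle peaks. The third of these lay in a CYYR1 intron at chr1:9929035-9929519, with an AUC of 445 and a summit value of 3.91. In hypothalamus the CYYR1 peak was another one, at chr1:9907766-9908057, with an AUC of 759 and a summit value of 6.89. The peaks were 21.0 kb apart. Both liver peaks of the window were shared, so 0 of 2 were in liver alone, beside 7.78% of all liver peaks.

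The ATP5PF promoter was the site of the window that ranked high in all 3 lists by summit value and by AUC. GABPA and ATP5PF are known in other mammals to be transcribed in opposite directions from a shared promoter region, and none of the lists had a peak labelled GABPA promoter. In hypothalamus the ATP5PF promoter peak (chr1:10690243-10692755) had an AUC of 14171 and a summit value of 16.3. In muscle it (chr1:10690872-10692204) had an AUC of 3575 and a summit value of 10.8, and in liver (chr1:10690876-10692164) an AUC of 1061 and a summit value of 5.64.

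By percentile of the summit value the ATP5PF promoter stood at 92.6 in hypothalamus, 97.0 in muscle and 75.6 in liver. By summit value it was thus placed higher in muscle than in hypothalamus, but the direction turned by AUC, with percentiles of 97.9 in hypothalamus and 95.1 in muscle, and by AUC per bp, with 96.9 and 88.2. The muscle and liver summits were at the same base, 48 bp from the hypothalamus summit. The hypothalamus peak was 2513 bp long, 1.89 times as long as the muscle peak of 1333 bp and 1.95 times as long as the liver peak of 1289 bp.

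The MRPL39 promoter was also open in all 3 tissues, at lower ranks. In hypothalamus the peak (chr1:10822642-10823820) had an AUC of 4821 and a summit value of 12.2 (percentile 83.5). In liver it (chr1:10823081-10823561) had an AUC of 601 and a summit value of 4.97 (percentile 61.5). In muscle it (chr1:10823083-10823390) had an AUC of 435 and a summit value of 4.24 (percentile 28.4). By percentile of the summit value ATP5PF thus stood above MRPL39 in each list, though by AUC per bp it stood at 25.7 in liver, below MRPL39 at 55.9. The order of muscle and liver differed between the genes by summit value, AUC and AUC per bp. By these, ATP5PF stood higher in muscle than in liver, and MRPL39 higher in liver than in muscle.

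**Figure D4:**
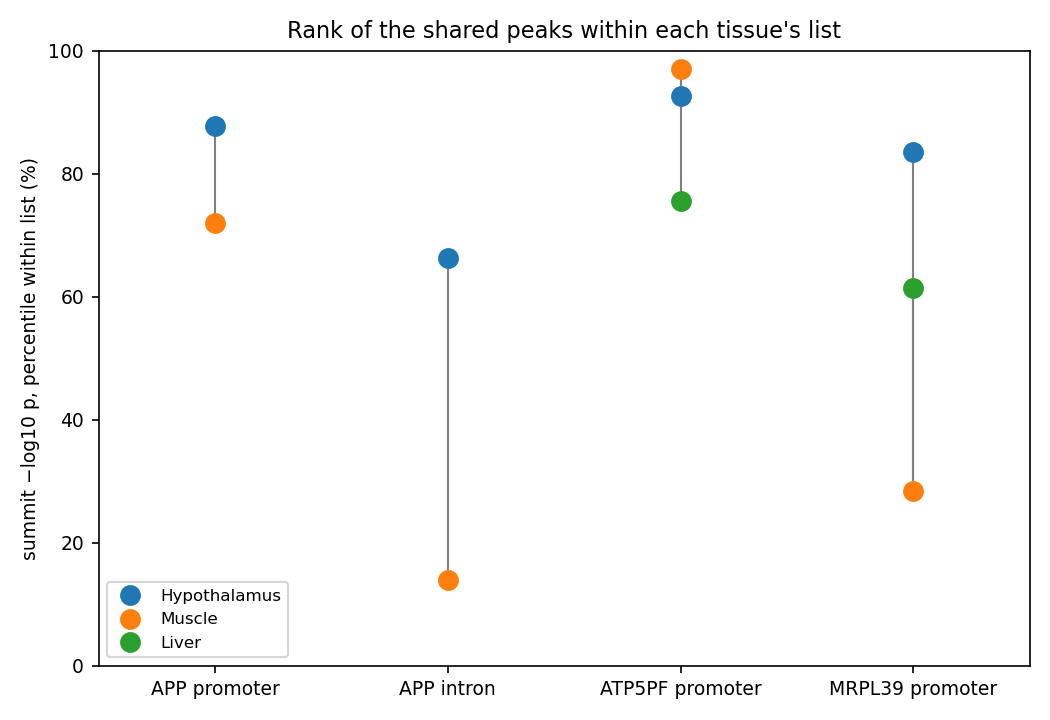
The percentile of the summit −log10 p within each tissue's list (y axis, %) is shown for the 4 sites of the window found in more than a single list (x axis), with a point per tissue and a line joining the tissues. ATP5PF is high in each list, from 75.6 to 97.0, while the APP intron site runs from 13.9 in muscle to 66.4 in hypothalamus.

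Past APP the hypothalamus list had peaks of its own at the other genes. JAM2, known for its part in cell contacts of endothelium, had promoter peaks at chr1:10787116-10788492, with an AUC of 3158 and a summit value of 7.92, and at chr1:10786771-10786955, with an AUC of 241 and a summit value of 4.47. It also had an exon peak with a summit value of 7.87 and an intron peak with one of 5.01. MIR155, whose microRNA is best known from immune cells, had a promoter peak at chr1:10849365-10849692 with an AUC of 247 and a summit value of 3.50, the lowest of the window. None of these overlapped a muscle or a liver peak. Of the 6 hypothalamus peaks labelled promoter, 3 (50.0%, Wilson interval 18.8 to 81.2) were thus unshared, beside 74.8% of all hypothalamus peaks. The share over all peaks labelled promoter is not given here, so nothing is read from this count.

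The other 5 hypothalamus peaks outside APP ran from 4.01 to 6.26 in summit value. They were the GABPA intron peak, an intron and a distal peak of MRPL39 and a pair of distal peaks near MIR155. Before the APP promoter the hypothalamus list was empty for 323098 bp, back to the CYYR1 intron peak, so its peaks lay almost wholly on the APP intron side of the promoter and beyond.

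The locus was chosen by its counts of peaks, so their place among other windows is a description only. The window was set among the 2587 windows of 1 Mb on chromosomes 1 to 29 and X. It lay just under the upper quartile of 39.5 in hypothalamus peaks and near the median in muscle and liver. Its 39 hypothalamus peaks exceeded the count of 73.9% of windows, whose median was 21. That place depended on where the window was set. Moved by 500 kb it held 20 hypothalamus peaks towards CYYR1 and 25 in the other direction, above 46.8% and 55.6% of windows so moved. Its 7 muscle peaks exceeded the count of 50.1% (median 6) and its 2 liver peaks that of 42.9% (median 2). In the 223 windows with 35 to 43 hypothalamus peaks, the median was 12 muscle and 4 liver peaks. Of these, 25 (11.2%) had as few as this window in muscle and in liver.

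**Figure D5:**
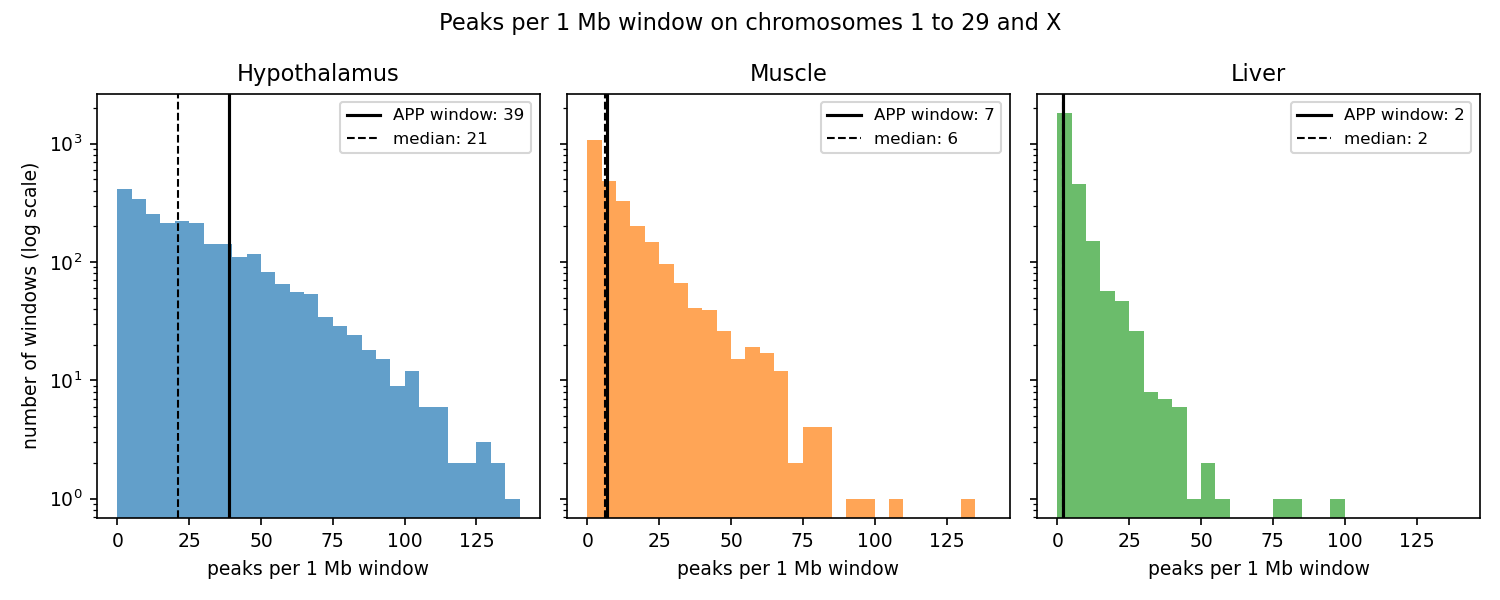
Histograms give the number of 1 Mb windows (y axis, log scale) by their count of peaks (x axis) for hypothalamus, muscle and liver, over 2587 windows. The solid line marks the window around APP, at 39, 7 and 2 peaks, and the dashed line the median of 21, 6 and 2, which coincides with the solid line in liver.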

How the data were processed

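Nuclei of frozen tissue of 3 heifers were tagmented and sequenced (9 libraries). Per the study's methods, the authors aligned reads to ARS-UCD 1.2 with HISAT2 and called peaks with Genrich 0.6.1, which removed PCR duplicates and combined the p-values of the 3 heifers of a tissue by Fisher's method. Multi-mapping reads were counted in fractions, so peaks in repeats share reads with other places. The deposited lists hold, per peak, start and end, a score (AUC per bp, capped, not used here), the AUC as a signal value, the summit −log10 p and the summit position. None is scaled between tissues, and the lists do not give depth, which was not used here.

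Peaks overlapping the window by any base were kept, with positions counted from 1. A peak was shared if it overlapped a peak of another list by 1 bp or more, the authors' bedtools rule. Labels (promoter, intron, exon, distal intergenic) were the authors' annotation, joined by name and position. The gene was that of the transcript named in an intron or exon label, and otherwise the nearest gene. The copy of the annotation used here was shortened to part of chromosome 1, so gene ranks cover that part. Peaks per 100 kb used the gene models that this copy names. Named peaks were all muscle and liver peaks, hypothalamus peaks that are shared or labelled promoter, and of the remaining APP peaks the 6 highest and 3 lowest by summit, with other peaks by range. The promoter label stood in for cover of a transcription start. The CYYR1 and JAM2 exon and intron peaks were named outside this rule, after their values were seen. The members, lists and alternatives were chosen with earlier results of these data known.

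No annotation of this build was used beyond those labels, so the planned promoter counts for secretase genes and tissue markers, genes most like APP and sequences at summits were not analysed here, and the tissue labels were not checked against markers. Scripts ran under scipy 1.17.1 for intervals, with pandas 2.3.3 (numpy 2.4.6, python 3.11.15, matplotlib 3.10.9 for plots). The overlap code was tested on simulated data. Alternatives were a summit value of 5, equal list lengths, 50% reciprocal overlap, a distance of 1 kb, 200 bp around summits, midpoints, the APP gene body with 10 kb on each side, shifted windows, other strength measures and other gene lengths.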

Additional observations from a re-analysis of the deposited data

How the results depend on the processing

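With the 12063 strongest peaks of each list, the hypothalamus count fell to 5 and the muscle count to 2. Of these, 2 of the 5 hypothalamus peaks (40.0%) and 0 of the 2 muscle peaks were in a single list. The share was 36.8% over the hypothalamus list so shortened, and that over the shortened muscle list is not given here. Peaks of summit value 5 or more left 3 muscle peaks and 1 liver peak, put the muscle count above 43.2% of windows and left APP 16 intron peaks. The APP gene body with 10 kb on each side held 4 muscle and 0 liver peaks. With 50% reciprocal overlap, 97.4% of the 39 hypothalamus peaks of the window were in a single list. The share of the whole hypothalamus list under that rule is not given here. Among all hypothalamus peaks as strong as the strongest APP intron peak it was 54.6%, an alternative chosen after seeing the data, and ranking by AUC made that last share 12.0%. The median liver percentile was 54.4 over the whole list with unplaced sequences and 40.8 by AUC per bp. APP had more hypothalamus peaks per 100 kb than 95% of genes of at least 200 kb, against 79.5% of those of at least 100 kb. The other 34 values for these comparisons stayed within the interval of a share, the spread of the members for a percentile, or 1.5 times for a count. No paired analysis was possible because each list is 1 consensus over the heifers, and leaving out a heifer and a fit with heifer as a block were not run for the same reason. The promoter counts of the secretase list were not run, since no annotation of this build was used. Depth is not in the lists and was not used here, and a peak that is missing from the shorter lists may lie under their threshold.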

Other observations

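Beyond the window the muscle and liver lists had no peak for a long stretch of the chromosome. From the end of the window the next muscle and the next liver peak both lay 8.33 Mb further on, at chr1:19227259-19228528 in muscle, with an AUC of 1834 and a summit value of 6.82, and at chr1:19227200-19228166 in liver, with an AUC of 1371 and a summit value of 5.64. In that stretch the hypothalamus list had 33 peaks, with a median summit value of 5.68 and a highest of 13.0. That made 3.96 per Mb, few beside the median of 21 over all windows of 1 Mb. The stretch was bounded by the next muscle and liver peaks, so its hypothalamus peaks were unshared by the way it was set. None was as strong as the strongest APP intron peak, and 7 had a summit value over 10. On the other side the nearest hypothalamus and muscle peaks lay 316 and 314 kb before the window, and the nearest liver peak 2619 kb before it. The window was thus the last place with muscle or liver peaks for several megabases. Moving the window by 500 kb gave 20 hypothalamus, 7 muscle and 0 liver peaks towards CYYR1, and 25, 2 and 2 in the other direction.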
